A study of Homo sapiens with 6 samples.

Results

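The proteasome genes of U87 cells are described here, chosen by name from the deposited table of TPM values, which are mRNA levels scaled by transcript length and by the total of the library. A gene was taken when its name in the table was PSM, a letter from A to G and a number, or POMP, and when its TPM reached at least 1 in any library. This gave 46 of the 60671 genes in the table, and all 46 passed the filter on low values (3 or more libraries at a TPM of 1 or above), as did 14377 genes in all. PSMB3, PSMB9 and PSMB11 carry no name in the table, so the naming rule did not reach them. They were found by their Ensembl identifiers and are given beside the 46 genes but outside their counts, and PSMB11, the thymus-specific subunit, was listed at 0 in all 6 libraries.

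U87 is an established human glioblastoma cell line. Rutaecarpine, an alkaloid of Evodia rutaecarpa that activates the aryl hydrocarbon receptor (AhR), was given in serum-free medium at 100 µM for 48 h with 0.1% DMSO as its solvent. The control group received 0.1% DMSO for the same 48 h, and each group had 3 libraries of total RNA from the same cell line. The labels do not say whether the libraries of a group came from separate cultures, so p-values measure the spread between these libraries, which may be technical.

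The proteasome is the protease that degrades proteins tagged with ubiquitin. Its 20S core is a barrel of alpha and beta rings with the active sites inside, the 19S particle on its ends recognises, deubiquitinates and unfolds substrates, and the PA28 and PA200 caps open the barrel in other ways. Interferon exchanges the constitutive active subunits for those of the immunoproteasome, which favours peptides for antigen presentation, while loss of proteasome activity raises the subunit genes together through the transcription factor NRF1 (gene NFE2L1).

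The libraries held the markers of mesenchymal glioma cells and almost none of other cell types. CHI3L1 lay between 1849 and 2947 TPM, CD44 between 415 and 837 TPM and VIM between 4430 and 7968 TPM, whereas the glial genes S100B and SOX2 did not exceed 0.25 TPM and GFAP lay between 3.48 and 5.41 TPM. OLIG2, of the same glial list, was at 1.55, 1.48 and 1.73 TPM in the controls and rose to 3.07, 3.70 and 4.11 TPM after rutaecarpine (log2 fold change 0.83, adjusted p = 0.0262 by limma). VIM was at 7551, 7968 and 6974 TPM in the controls and fell to 4977, 5164 and 4430 TPM after rutaecarpine (log2 fold change -0.63, adjusted p = 0.00894 by limma). PTPRC, CD3E and CD14, which mark leukocytes, did not exceed 0.54 TPM, EPCAM of epithelial cells did not exceed 0.80 TPM and PECAM1 of endothelial cells reached 1.33 TPM. The 9p21 genes CDKN2A, CDKN2B and MTAP, which U87 cells lack, were at or below 0.06 TPM. Control replicate 3 stood apart from the other libraries. Its median log2(TPM + 1) was 3.56, against 3.95 and 3.97 in the other controls and 3.81 to 4.00 after rutaecarpine, and it correlated with the other controls at r = 0.965 where these correlated with each other at r = 0.986. The counts of proteasome genes that rose or fell are therefore also given without it. Those of the lists of genes around the proteasome are given only with it.

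Short stretches of promoter are shown first for the interferon-inducible members, because the comparison of core, cap and immunoproteasome turns on them. The letters are from RefSeq (GRCh38.p14), read 5′ to 3′ on the strand of the gene, and the capitals mark the core of the interferon-stimulated response element, searched as GAAA, any 2 bases and GAAA. On the opposite strand it reads TTTC, any 2 bases and TTTC.
PSMB8, chr6:32844033-32844061, minus strand: gatctgtggcTTTCGCTTTCacttcctcc
PSMB10, chr16:67936852-67936881, minus strand: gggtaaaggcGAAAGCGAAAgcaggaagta
PSME1, chr14:24136189-24136208, plus strand: gccctaccgcTTTCGCTTTC
PSME2, chr14:24146619-24146648, minus strand: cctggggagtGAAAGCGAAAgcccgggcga
TAP1, chr6:32853813-32853842, minus strand: ccgctttcgaTTTCGCTTTCccctaaatgg
The same core letters, GAAAGCGAAA or their reverse complement, stood in all 5 stretches. In a window of 250 bases before to 50 bases after each RefSeq start site, searched on both strands, 40 of the 46 genes had a promoter. The element was found in 7 of these 40 genes, or 17.5%, against 4.38% of all genes with a promoter and 4.01% of the tested genes, and counted over start sites in 14.3% of 49 member promoters against 3.57% of 35116. Besides the 4 above, PSMA4, PSMB4 and PSMG4 held it. The window of PSMB9 held no match to these letters. The TAP1 stretch lies before the PSMB9 start site, beyond the 250 bases searched there. The element spans the start site in PSMB8 and follows it in PSME1, and TAP1 held a pair of overlapping matches, of which 1 is in capitals. PSMA7, PSMB1, PSMB6, PSMB7, PSMD4 and PSMG3 were not searched.

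A second set is shown for the antioxidant response element core TGACNNNGC, to which NRF1 and NRF2 (gene NFE2L2) bind together with small MAF proteins. It is printed, in capitals, for 6 members chosen after their values were seen, 4 with a log2 fold change above 0.2 (PSMA4, PSMD12, PSMD5 and PSME4) and, for contrast, PSMD3 and PSME1 at 0.02 and -0.11.
PSMA4, chr15:78540650-78540678, plus strand: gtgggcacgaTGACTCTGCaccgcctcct
PSMD12, chr17:67366724-67366752, minus strand: agacaaaaccTGACGCTGCaggctggagt
PSMD5, chr9:120843038-120843066, minus strand: tggctacagtTGACACGGCcctaacggag
PSME4, chr2:53971009-53971037, minus strand: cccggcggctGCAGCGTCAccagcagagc
PSMD3, chr17:39980760-39980788, plus strand: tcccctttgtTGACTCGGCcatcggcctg
PSME1, chr14:24136098-24136126, plus strand: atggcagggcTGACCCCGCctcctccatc
This core was found in 13 of the 40 genes, or 32.5%, against 16.1% of all genes and 19.7% of the tested genes. The other members with it were PSMC4, PSMC5, PSMD1, PSMD9, PSME2, PSMG1 and PSMG2. Their log2 fold changes were 0.29, 0.06, 0.06, 0.07, 0.09, 0.02 and -0.11 in this order. PSMB9, at -0.10, held it too. The dioxin response element core CACGCNA, to which AhR binds, was found only in PSMD9 and PSMD12 among the 40 genes, which is 5.0% against 6.69% of all genes and 9.53% of the tested genes. TAP1, which is no member, held 2 matches to it, in the window of another of its start sites than the one shown above. A match is a run of letters in a window and was not tested for binding.

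Most proteasome mRNAs differed little between the groups. Of the 46 genes, 1 rose (PSMD6) and 1 fell (PSMA8) at an adjusted p of at most 0.05 (limma on log2(TPM + 1), Benjamini-Hochberg over 14377 genes), where 4.6% of all tested genes rose and 4.68% fell, 9.29% together. PSMA8 was also the only differentially expressed gene (DEG, which also needed a log2 fold change above 1 or below -1), and 3.51% of all tested genes were DEGs. The median log2 fold change was 0.09 over the 46 genes and 0.08 over all tested genes, and 35 of the 46 values were above 0. When each library was centred on its median, the median over the 46 genes was 0.00 and that over all tested genes -0.01, and 24 of the 46 were above 0. All 3 rutaecarpine libraries lay above all 3 controls for 16 genes, or 34.8%, against 19.3% of all tested genes, and below them for 1 gene, PSMA8, against 14% of all tested genes.

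**Figure D1:**
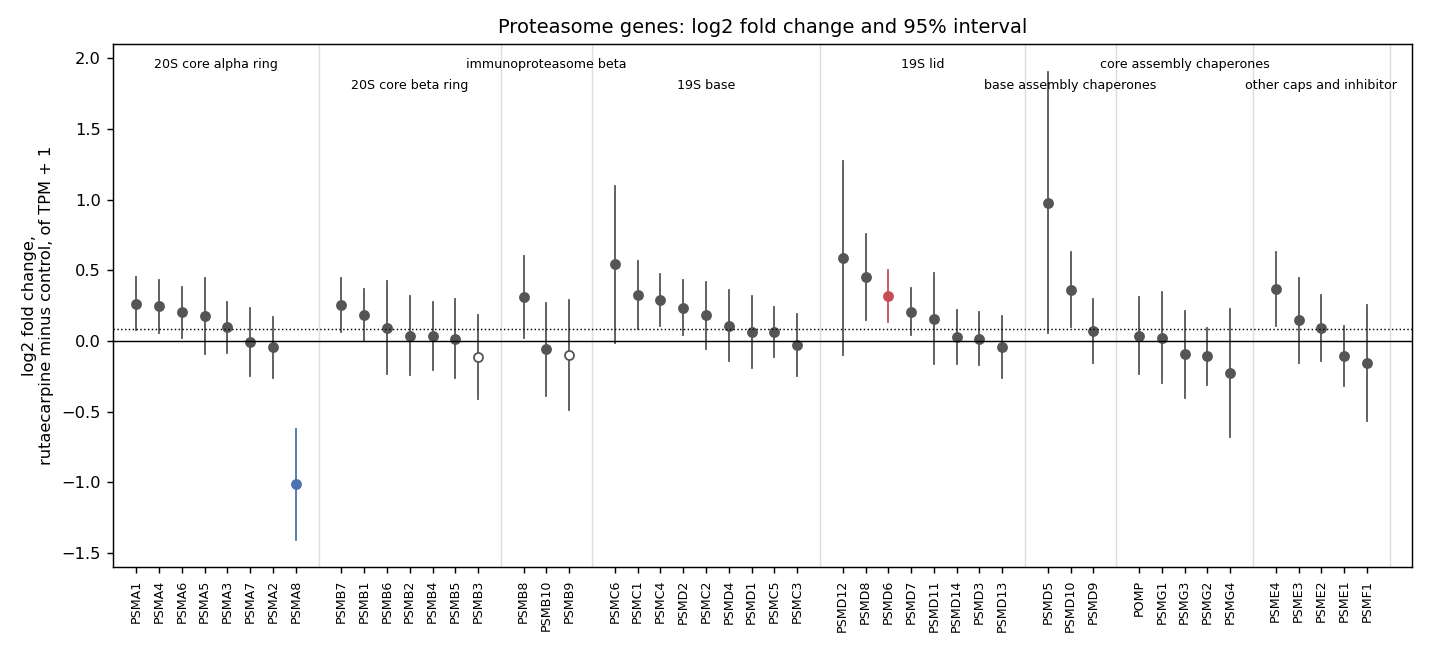
Each point is the log2 fold change of 1 proteasome gene (rutaecarpine minus control, log2(TPM + 1), n = 3 a group) with its 95% interval, arranged by class. Filled points are the 46 genes of the naming rule, open points PSMB3 and PSMB9, red marks PSMD6 and blue PSMA8, the dotted line is the median of all tested genes at 0.08, and most points lie between -0.25 and 0.60.

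The count of genes that rose rested on which libraries entered. Without control replicate 3, 11 of the 46 genes rose, or 23.9%, against 8.36% of all tested genes: PSMA4, PSMA6, PSMB7, PSMB8, PSMC1, PSMC4, PSMC6, PSMD6, PSMD7, PSMD8 and PSME4. Their median was then 0.13 and that over all tested genes -0.01. In this fit PSMA8 again fell but was no longer a DEG. Rutaecarpine replicate 2 was also low in long members (r = -0.34 between its deviation and log2 length over the 46 genes). The deviations of the other 4 libraries correlated with length at r = 0.15 to 0.42. Each deviation was taken from the mean of the other libraries of its group, so the opposite signs follow in part from the calculation. With rutaecarpine replicate 2 and control replicate 3 left out, a choice made after seeing the data, 13 genes rose, or 28.3%, against 11.4% of all tested genes. Down-weighting libraries by their fit to the rest gave 15 genes, or 32.6%, against 13.5%, and removing the trends with length and GC content gave 5 genes, or 10.9%, against 9.12%, namely PSMA1, PSMB7, PSMC4, PSMD8 and PSMD10. Without control replicate 1, rutaecarpine replicate 1 or rutaecarpine replicate 3 in turn, 0 of the 46 genes passed in either direction by limma, where 16 of the 46, or 34.8%, had an unadjusted p under 0.05 in the fit to all 6 libraries, against 24.4% of all tested genes.

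Transcript length moved with the position of control replicate 3. Its deviation from the mean of the other controls correlated with the log2 length of the longest annotated transcript at r = -0.34 over the 46 genes (Spearman's rho -0.34, a description across genes that share a library). The 46 genes were shifted by a median of 0.19 on the log2 scale at or below the median length of 2479 bases and by 0.07 above it. PSMB6 was 0.46 higher in this library than in the other controls, while PSMD12 was 1.08 lower on the log2 scale. It was the highest of all 6 libraries for 16 genes and the lowest for 12. With control replicate 3 set aside, 28 of the 46 genes, or 60.9%, were higher in all rutaecarpine libraries than in control replicates 1 and 2, against 23.6% of all tested genes. The part of the length trend in the counts was not tested beyond the fit with the trend removed.

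**Figure D2:**
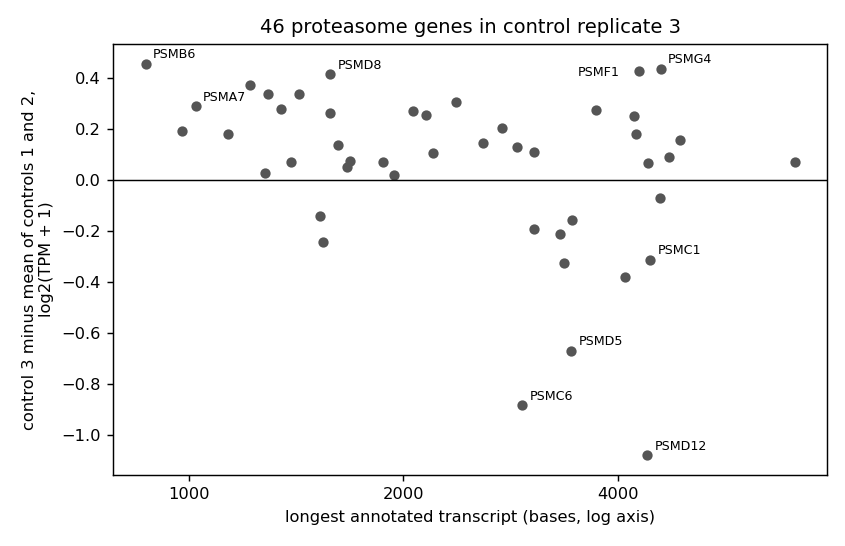
Each point is 1 of the 46 genes, with the length of its longest annotated transcript in bases (log axis) against its log2(TPM + 1) in control replicate 3 minus the mean of control replicates 1 and 2. Some short transcripts such as PSMB6 lie above 0 and others, such as PSMA1 and PSMD10, below it. The lowest points, PSMD12, PSMC6 and PSMD5, are of longer transcripts.

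The alpha ring of the 20S core held the clearest single change. PSMA8, an alpha subunit of the testis that can take the place of PSMA7, lies on chromosome 18 from 26133852 to 26193355 (GRCh38, GENCODE 29, plus strand). It was measured at 5.09, 4.65 and 5.16 TPM in the controls and at 1.71, 2.35 and 1.84 TPM after rutaecarpine. The groups did not overlap, and the mean ratio was 0.396 (log2 fold change -1.01 ± 0.17 SE, adjusted p = 0.0118). PSMA7 itself, on chromosome 20 from 62136735 to 62143440, was the most abundant alpha subunit at 404, 407 and 496 TPM in the controls and 418, 462 and 417 TPM after rutaecarpine (log2 fold change -0.01, adjusted p = 0.973). PSMA8 thus came to 1.13 ± 0.107% (SD, n = 3) of the 2 genes together in the controls and to 0.451 ± 0.0504% after rutaecarpine. The PSMA8 and PSMA7 proteins are close relatives, and how reads shared between their transcripts were divided was not tested.

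Of the other 6 alpha subunits, PSMA1, PSMA4 and PSMA6 had groups that did not overlap, all higher after rutaecarpine, as were 19.3% of all tested genes. PSMA1 showed the largest difference, at 211, 196 and 185 TPM in the controls and 233, 243 and 235 TPM after rutaecarpine (log2 fold change 0.26, adjusted p = 0.089). PSMA4 had a log2 fold change of 0.24 (adjusted p = 0.117) and PSMA6 of 0.20 (adjusted p = 0.164), with all rutaecarpine libraries above all controls in each. PSMA2, PSMA3 and PSMA5 overlapped between the groups, with log2 fold changes of -0.04, 0.10 and 0.18. The alpha ring without PSMA8 and the beta ring together summed to 2755, 2679 and 3105 TPM in the controls and 2956, 3258 and 3061 TPM after rutaecarpine, 13 genes with a ratio of 1.09. These sums overlapped, with control replicate 3 above rutaecarpine replicates 1 and 3, and without that library the ratio was 1.14. On the log2 scale the ratio was 0.119, and 0.00626 with libraries scaled to one median.

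The constitutive beta ring carries the proteolytic sites in PSMB5 (chymotrypsin-like), PSMB6 (caspase-like) and PSMB7 (trypsin-like), and 0 of its 6 genes under the naming rule passed the test by limma, with 2 at an unadjusted p under 0.05, which 24.4% of all tested genes had. PSMB7, on chromosome 9 from 124353466 to 124415444, had the largest log2 fold change of the ring, at 314, 319 and 361 TPM in the controls and 384, 407 and 395 TPM after rutaecarpine (log2 fold change 0.26, adjusted p = 0.108). PSMB5 was at 144, 146 and 184 TPM in the controls and 147, 171 and 158 TPM after rutaecarpine. PSMB6 was at 194, 194 and 267 TPM in the controls and 213, 243 and 236 TPM after rutaecarpine. PSMB7 did not overlap between groups, whereas PSMB5 (log2 fold change 0.01, 95% interval -0.26 to 0.29) and PSMB6 (0.09, -0.23 to 0.42) did, both with control replicate 3 as the highest library. The non-catalytic subunit PSMB4 was the most abundant of the ring, at 424, 415 and 507 TPM in the controls and 427, 491 and 455 TPM after rutaecarpine (log2 fold change 0.03). PSMB1 did not overlap (log2 fold change 0.18, adjusted p = 0.204) and PSMB2 did (0.04). PSMB3, outside the rule, was at 223, 217 and 289 TPM in the controls and 208, 239 and 222 TPM after rutaecarpine (log2 fold change -0.11, adjusted p = 0.612).

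**Figure D3:**
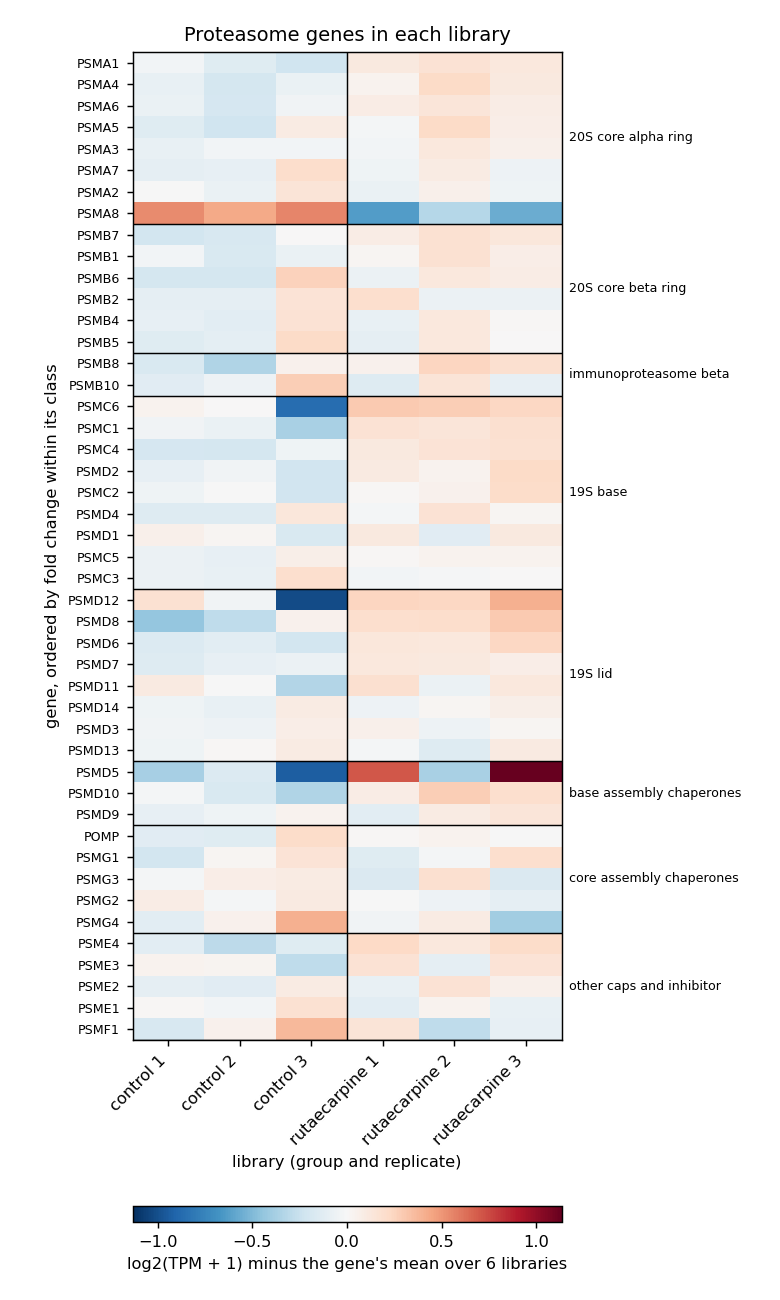
Each row is 1 of the 46 genes and each column 1 library, with the colour giving log2(TPM + 1) minus the mean of the gene over the 6 libraries (red higher, blue lower). PSMA8 is the clearest row with opposite colours in the groups, and PSMC6, PSMD12 and PSMD5 are low in control replicate 3.

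None of the immunoproteasome subunits passed the test in the fit to all libraries, where 9.29% of all tested genes passed in either direction. The log2 fold changes of PSMB9 and PSMB10 were below 0 in that fit and above 0 without control replicate 3. PSMB8 (beta 5i), on chromosome 6 from 32840717 to 32844703, replaces PSMB5 and was at 56.1, 49.8 and 65.8 TPM in the controls and 65.5, 75.1 and 71.8 TPM after rutaecarpine. PSMB9 (beta 1i), which replaces PSMB6 and is the neighbour of PSMB8 on chromosome 6, was at 33.5, 30.9 and 43.5 TPM in the controls and 28.5, 37.7 and 34.0 TPM after rutaecarpine. PSMB10 (beta 2i), on chromosome 16 from 67934502 to 67937087, replaces PSMB7 and was at 72.3, 75.8 and 96.4 TPM in the controls and 71.5, 88.0 and 74.1 TPM after rutaecarpine. All 3 overlapped between the groups. The log2 fold change was 0.31 for PSMB8 (95% interval 0.02 to 0.60, adjusted p = 0.180), -0.10 for PSMB9 (-0.49 to 0.29, adjusted p = 0.741) and -0.06 for PSMB10 (-0.39 to 0.27, adjusted p = 0.816). PSMB8 rose without control replicate 3. Exons of PSMB8 overlap those of PSMB9 and PSMB8-AS1 on the opposite strand, and exons of PSMB9 overlap those of PSMB8-AS1 on the same strand. PSMB8-AS1 was at 8.11 to 8.76 TPM in the controls and 9.98 to 11.2 TPM after rutaecarpine. How reads of the overlaps were divided between these genes was not tested.

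Set against the subunit that each replaces, the 3 immunoproteasome genes lay on different sides of the controls. This comparison was chosen after the values were seen, and it is given as a description with no test. PSMB8 made up 28.1, 25.4 and 26.4% of PSMB8 and PSMB5 together in the controls and 30.9, 30.5 and 31.2% after rutaecarpine. PSMB10 made up 18.7, 19.2 and 21.1% of PSMB10 and PSMB7 together in the controls and 15.7, 17.8 and 15.8% after rutaecarpine. PSMB9 made up 14.7, 13.7 and 14.0% of PSMB9 and PSMB6 together in the controls and 11.8, 13.4 and 12.6% after rutaecarpine. The groups did not overlap in any of the 3 shares, higher for PSMB8 and lower for PSMB9 and PSMB10. In TPM, PSMB8, PSMB9 and PSMB10 each overlapped between the groups. PSMB7, which enters the share of PSMB10, was higher after rutaecarpine without overlap (log2 fold change 0.26, against -0.06 for PSMB10). How often such shares separate in other gene pairs was not tested. Control replicate 3 lay between the other controls in the shares of PSMB8 and PSMB9 and was the highest control in that of PSMB10. The 3 immunoproteasome genes made up 19.8 ± 0.529% (SD, n = 3) of the 6 active-site genes in the controls and 18.8 ± 0.752% after rutaecarpine, with overlapping groups.

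**Figure D4:**
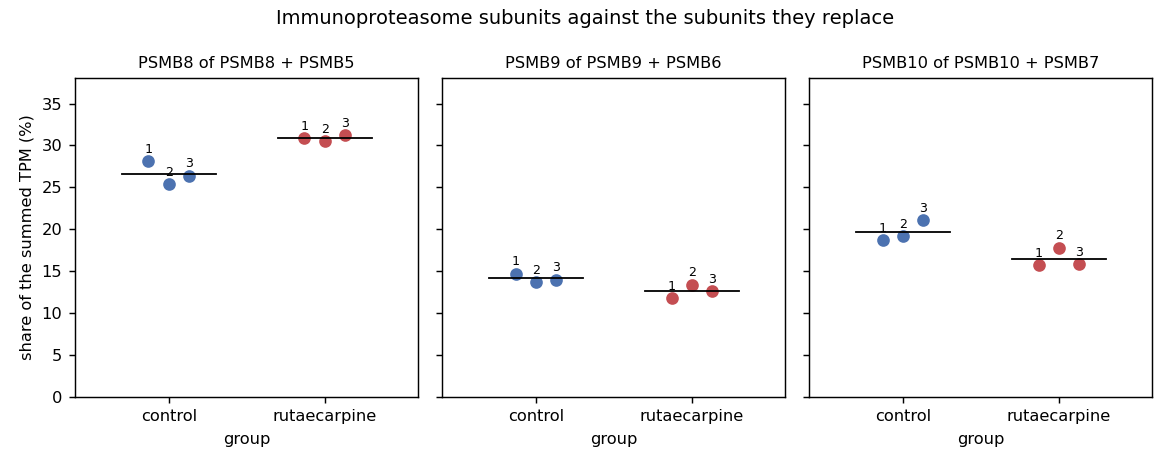
The share of each immunoproteasome gene in the summed TPM of that gene and the constitutive gene it replaces (%) is shown for each library, numbered by replicate, with the group mean as a line. The share of PSMB8 is 25.4 to 28.1% in the controls and 30.5 to 31.2% after rutaecarpine, and the shares of PSMB9 and PSMB10 are lower after rutaecarpine.

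PSME1 and PSME2 encode PA28 alpha and beta, the interferon-inducible cap that is often found on the immunoproteasome. PSME1, on chromosome 14 from 24136158 to 24138967, was at 158, 153 and 177 TPM in the controls and 144, 161 and 148 TPM after rutaecarpine (log2 fold change -0.11, adjusted p = 0.503). PSME2, on the opposite strand from 24143362 to 24147570, was the most abundant cap gene outside the 19S particle at 167, 164 and 190 TPM in the controls and 168, 200 and 186 TPM after rutaecarpine (log2 fold change 0.09, adjusted p = 0.611). Both overlapped between the groups. PSMB8, PSMB9, PSMB10, PSME1 and PSME2 summed to 511 ± 54.0 TPM (SD, n = 3) in the controls and 518 ± 41.9 TPM after rutaecarpine, a ratio of 1.01, and of 1.08 without control replicate 3. Within the windows searched, these genes except PSMB9 held the interferon element printed above. Of the 5 genes, 0 passed the test by limma, where 9.29% of all tested genes passed in either direction. PSMB8 alone had an unadjusted p under 0.05 by limma, which 24.4% of all tested genes had.

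Of the summed levels of core, 19S particle and immunoproteasome, that of the 19S particle under the naming rule differed most between the groups. Its 17 genes summed to 2508, 2535 and 2621 TPM in the controls and 2879, 2865 and 3011 TPM after rutaecarpine, which did not overlap, a ratio of 1.14, and of 1.16 without control replicate 3. On the log2 scale this ratio was 0.192, and 0.0838 with libraries scaled to one median. The 17 genes leave out SEM1 and ADRM1, 19S subunits with other names. With these the 19 genes had a ratio of 1.10, against 1.09 for the core. Without control replicate 3 their ratio lay below the 1.14 of the core. The order of core and 19S particle thus depended on the genes and libraries counted. Of the 17 genes, 9, or 52.9%, did not overlap between the groups, all higher after rutaecarpine, against 19.3% of all tested genes. Of these 9 genes 1 passed the test by limma, where 4.6% of all tested genes rose. PSMD6 (Rpn7), a lid subunit on chromosome 3 from 64010549 to 64024010, was at 91.5, 94.2 and 88.4 TPM in the controls and 112, 111 and 120 TPM after rutaecarpine. It rose 1.25-fold, with a log2 fold change of 0.32 ± 0.08 SE (adjusted p = 0.0482), close to the threshold, and of the fits that left out 1 library it passed only in that without control replicate 3. With length and GC trends removed its log2 fold change was 0.12 (adjusted p = 0.665). It also did not pass with libraries centred on their medians, with no mean trend, with no filter or with a pseudocount of 0.1. The antisense genes PSMD6-AS1 and PSMD6-AS2, which overlap its exons, did not exceed 0.52 TPM.

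Among the other lid genes, PSMD8 (Rpn12) was the most abundant and had the second lowest p of the lid. It was at 286, 317 and 403 TPM in the controls and 442, 445 and 478 TPM after rutaecarpine (1.36-fold, log2 fold change 0.45, 95% interval 0.15 to 0.76, adjusted p = 0.0786). PSMD12 (Rpn5) had the largest log2 fold change of the lid, 0.59 (adjusted p = 0.272), and was at 47.7, 41.1 and 20.4 TPM in the controls and 50.1, 49.8 and 56.2 TPM after rutaecarpine. Its groups did not overlap, and control replicate 3 lay far below the other controls. Without that library the log2 fold change was 0.23 for PSMD12, below 0.59 for PSMD8 and 0.30 for PSMD6. PSMD7 (Rpn8), the partner of the deubiquitinase, was at 119, 123 and 126 TPM in the controls and 143, 143 and 139 TPM after rutaecarpine (log2 fold change 0.21, adjusted p = 0.129). PSMD14 (Rpn11), the deubiquitinase that removes ubiquitin chains from substrates, overlapped between the groups (log2 fold change 0.03), as did PSMD3 (0.02) and PSMD11 (0.16). PSMD13, with the lowest log2 fold change of the lid (-0.04), was at 103, 108 and 114 TPM in the controls and 105, 96.1 and 114 TPM after rutaecarpine.

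In the base, the ring of ATPases PSMC1 to PSMC6 unfolds substrates, while PSMD1 and PSMD2 are the scaffolds that hold receptors and shuttles and PSMD4 is a ubiquitin receptor. PSMC4 had the lowest p of the base, at 97.3, 96.8 and 107 TPM in the controls and 120, 123 and 125 TPM after rutaecarpine (1.22-fold, log2 fold change 0.29, adjusted p = 0.0694). PSMD2, the most abundant base gene, was at 364, 378 and 334 TPM in the controls and 416, 400 and 451 TPM after rutaecarpine (log2 fold change 0.24, adjusted p = 0.14). PSMC6 had the largest log2 fold change, 0.54 (adjusted p = 0.216), at 55.3, 53.8 and 29.1 TPM in the controls and 66.1, 65.4 and 63.4 TPM after rutaecarpine. Without control replicate 3 it was 0.25, below 0.34 for PSMC4. PSMC4, PSMD2 and PSMC6 had groups that did not overlap, and so had PSMC1 (log2 fold change 0.32) and PSMC2 (0.18). They made up 55.6% of the base genes, all higher after rutaecarpine, against 19.3% of all tested genes. PSMC3 had the lowest log2 fold change of the base (-0.03), at 254.7, 251.6 and 304 TPM in the controls and 260, 264.7 and 266.8 TPM after rutaecarpine. PSMC5, PSMD1 and PSMD4 overlapped, with log2 fold changes of 0.06, 0.06 and 0.11. PSMC1 has pseudogenes with measurable levels. PSMC1P1 was at 15.3 to 27.6 TPM and PSMC1P5, annotated as 177 bases, at 0 in rutaecarpine replicates 1 and 3 and 91.5 TPM in rutaecarpine replicate 2, and how reads were divided between them and PSMC1 was not tested.

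The chaperones that build the 19S base had a median log2 fold change of 0.36 and those that build the 20S core one of -0.10, with 0 of these 8 genes past the test by limma and 2, PSMD5 and PSMD10, at an unadjusted p under 0.05, a share near the 24.4% of all tested genes. PSMD5, PSMD9 and PSMD10 hold the base subunits during assembly. PSMD5, on chromosome 9 from 120815496 to 120842984, had the largest log2 fold change of the 46 genes, 0.98 ± 0.39 SE (adjusted p = 0.183), at 20.2, 23.8 and 13.4 TPM in the controls and 43.9, 20.3 and 59.5 TPM after rutaecarpine. Rutaecarpine replicate 2 lay within the controls, and the other 2 rutaecarpine libraries lay well above them. Without rutaecarpine replicate 2, PSMD5 passed the test and was a DEG. PSMD10 (gankyrin) was at 53.2, 47.8 and 42.5 TPM in the controls and 57.4, 65.7 and 61.8 TPM after rutaecarpine, without overlap (log2 fold change 0.36, adjusted p = 0.102). PSMD9 was the most abundant of the 3, at 117, 120 and 128 TPM in the controls and 115, 133 and 137 TPM after rutaecarpine (log2 fold change 0.07).

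The 5 core chaperones, PSMG1 to PSMG4 and POMP, all overlapped between the groups. By limma 0 of them had an unadjusted p under 0.05, against 24.4% of all tested genes. PSMG4 had the lowest value, -0.23 (adjusted p = 0.512), at 14.2, 16.1 and 20.9 TPM in the controls and 15.1, 16.6 and 11.6 TPM after rutaecarpine. POMP, which joins the rings into the full core, was the most abundant and the highest of the 5, at 55.4, 55.3 and 70.3 TPM in the controls and 61.4, 62.6 and 60.6 TPM after rutaecarpine (log2 fold change 0.04, adjusted p = 0.865). PSMG1, PSMG2 and PSMG3 had log2 fold changes of 0.02, -0.11 and -0.10.

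Of the remaining caps, PSME4 encodes PA200, a large nuclear activator. PSME4, on chromosome 2 from 53864067 to 53970840, was at 19.7, 17.3 and 19.4 TPM in the controls and 25.2, 23.4 and 24.9 TPM after rutaecarpine (1.30-fold, log2 fold change 0.36, 95% interval 0.10 to 0.63, adjusted p = 0.0954). PSME3, the nuclear PA28 gamma, was at 63.4, 63.0 and 50.4 TPM in the controls and 69.0, 57.5 and 68.8 TPM after rutaecarpine (log2 fold change 0.14, adjusted p = 0.532). PSMF1, the inhibitor PI31, was at 38.4, 45.2 and 56.5 TPM in the controls and 48.3, 35.7 and 40.9 TPM after rutaecarpine (log2 fold change -0.16, adjusted p = 0.613). PSME4 alone of these had groups that did not overlap, and it rose without control replicate 3.

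Genes around the proteasome were taken from lists written by hand, with earlier results of these data known. Of the 9 tested genes of the NRF1 pathway 4 rose and 0 fell, where 4.6% of all tested genes rose and 4.68% fell. Their median log2 fold change was 0.52, against 0.08 over all tested genes. NFE2L2, the oxidative-stress relative of NRF1, rose from 51.7, 50.5 and 40.0 TPM in the controls to 102.7, 99.95 and 122.2 TPM (log2 fold change 1.18, adjusted p = 0.00282). MAFF was at 34.4, 37.5 and 32.6 TPM in the controls and 76.0, 77.0 and 83.7 TPM after rutaecarpine, MAFG was at 22.5, 20.8 and 17.5 TPM in the controls and 38.9, 35.8 and 41.5 TPM after rutaecarpine, and SYVN1 was at 32.9, 34.4 and 30.4 TPM in the controls and 58.1, 55.1 and 64.9 TPM after rutaecarpine. In each of these genes all rutaecarpine libraries lay above all controls, and control replicate 3 was the lowest library. MAFF and MAFG, small MAF partners of NRF1 and NRF2, rose by log2 fold changes of 1.16 and 0.91 (adjusted p = 0.000919 and 0.00624), and SYVN1 (HRD1), the ubiquitin ligase that marks NRF1 in the endoplasmic reticulum, by 0.85 (adjusted p = 0.00409). NFE2L1 was at 303, 350 and 274 TPM in the controls and 412, 380 and 456 TPM after rutaecarpine, without overlap (log2 fold change 0.43, adjusted p = 0.0634). NFE2L3 was not tested, at 0.52 to 2.05 TPM, and MAFK, VCP, DDI2 and NGLY1 did not pass, at log2 fold changes of 0.52, 0.33, 0.50 and 0.04. The TPM values are mRNA levels, and the activity of NRF1, which is set by cleavage of the protein, was not measured.

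**Figure D5:**
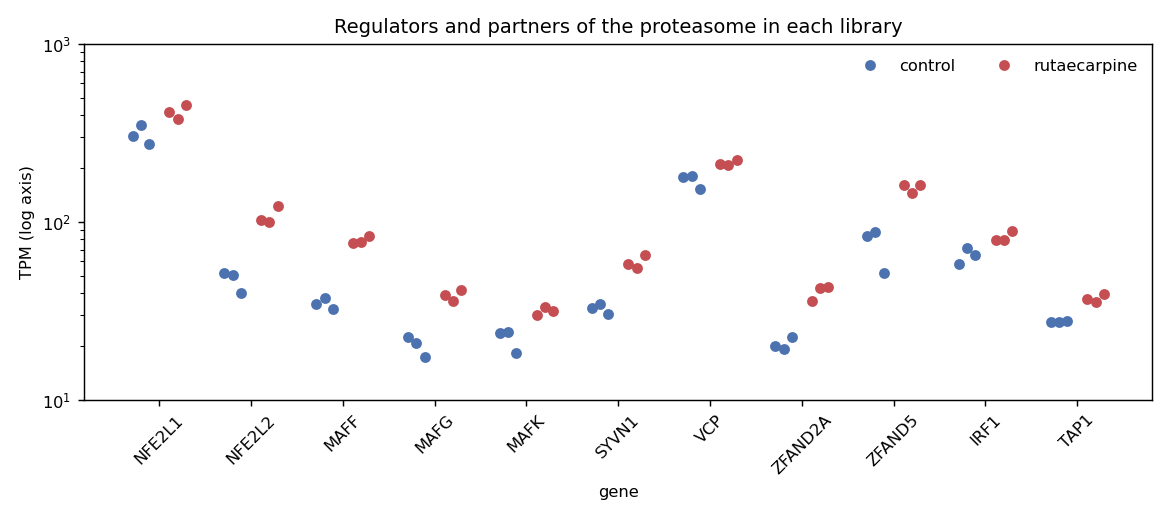
Each point is the TPM (log axis) of 1 gene in 1 library, control in blue and rutaecarpine in red, with replicates 1 to 3 from left to right. NFE2L2, MAFF, MAFG, SYVN1, ZFAND2A, ZFAND5 and TAP1 passed the test, and NFE2L1, MAFK, VCP and IRF1 did not although their groups did not overlap.

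In the list of ubiquitin supply and shuttles, 2 of 13 genes rose and 0 fell, where 4.6% of all tested genes rose and 4.68% fell. ZFAND2A (AIRAP) and ZFAND5, stress-induced proteins that bind the 19S particle, rose by log2 fold changes of 0.94 and 1.10 (adjusted p = 0.00491 and 0.0171). ZFAND2A was at 20.02, 19.3 and 22.7 TPM in the controls and 36.0, 42.7 and 43.3 TPM after rutaecarpine, and ZFAND5 was at 83.2, 87.9 and 51.5 TPM in the controls and 160, 145 and 162 TPM after rutaecarpine. Neither gene overlapped between the groups. Control replicate 3 was the lowest library for ZFAND5 and the highest control for ZFAND2A. The median log2 fold change of the 13 genes was 0.17, against 0.08 over all tested genes.

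Of 9 proteasome partners 0 passed the test by limma, with 2 at an unadjusted p under 0.05, a share near the 24.4% of all tested genes. SEM1, the smallest 19S subunit, was at 317, 370 and 401 TPM in the controls and 314, 289 and 285 TPM after rutaecarpine, lower without overlap (log2 fold change -0.29, adjusted p = 0.144). The ubiquitin receptor ADRM1 was at 174, 174 and 218 TPM in the controls and 203, 206 and 203 TPM after rutaecarpine (log2 fold change 0.12, adjusted p = 0.528). The partners had a median of 0.12.

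Among 9 interferon factors and peptide-loading genes 1 passed, a share near the 9.29% of all tested genes that passed in either direction. This gene was TAP1, the peptide transporter subunit next to PSMB9 on chromosome 6. It rose from 27.4, 27.4 and 27.6 TPM to 36.8, 35.6 and 39.5 TPM (log2 fold change 0.43, adjusted p = 0.0362). IRF1 was at 57.9, 71.9 and 65.4 TPM in the controls and 79.3, 79.6 and 89.2 TPM after rutaecarpine, without overlap (log2 fold change 0.34, adjusted p = 0.104). The list had a median log2 fold change of 0.12, against 0.08 over all tested genes.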

How the data were processed

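U87 cells were profiled by RNA-Seq in 3 control and 3 rutaecarpine libraries. The authors deposited one table of TPM per gene, and their processing notes name RSEM, DESeq2, edgeR and GRCh38.p13. The aligner and the annotation release are not given in the sources used here. TPM keeps no library depth, so depth is unknown and no count test was run. All 6 columns matched a sample, and 0 were left over. TPM values were taken as log2(TPM + 1), genes were kept where 3 or more libraries reached a TPM of 1, and limma 3.58.1 (R 4.3.3, trend on) tested rutaecarpine against control. The p-values were adjusted by Benjamini-Hochberg over 14377 genes. Intervals of 95% use limma's standard error. Ratios are of mean TPM.

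The members and lists were chosen with earlier results of these data known. By rule, values in every library are given for the immunoproteasome, its PA28 cap and the subunits replaced, for genes that passed, for the largest rise, largest fall and highest mean of each class, and for POMP, PSME3, PSME4 and PSMF1, with companion genes that passed or were listed by name. Some genes of the companion lists are not reported here. Others were named after their values were seen. Positions and lengths are from GENCODE 29 (GRCh38), and promoters from RefSeq. On simulated data, with a spread smoothed over the mean level, the fit recovered 0.333% of genes changed by a log2 of 0.3. It recovered 33.7% at 0.5, 93.5% at 1 and all at 2, out of 200 changed genes among 14377. The simulated noise was independent between libraries, so no library stood apart as control replicate 3 did. The changed genes were drawn at random from all tested genes, so these shares are not those of the proteasome genes. Alternatives were another centring, filter, pseudocount and threshold, a replicate block, library weights, removal of length and GC trends, and each library left out.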

Additional observations from a re-analysis of the deposited data

How the results depend on the processing

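Of the 46 genes, 1 rose and 1 fell in the fit to all libraries, and 1 was a DEG. The count that rose was 0 with libraries centred on their medians, without the mean trend, with no filter, with a pseudocount of 0.1 and at an adjusted p of at most 0.001, 5 with length and GC trends removed, 15 with library weights and 13 with control replicate 3 and rutaecarpine replicate 2 left out, which was chosen after seeing the data. The counts that fell and of DEGs were both 0 with no filter and at the threshold of 0.001, and with both of those libraries left out DEGs were 2. Leaving out 1 library gave 0 to 11 genes that rose, 0 to 1 that fell and 0 to 2 DEGs. With the replicate number as a block 0 rose (PSMD6 at an adjusted p of 0.208 by limma), 0 fell and 0 were DEGs. The deviations of same-numbered libraries from their group means correlated at r = 0.116, -0.266 and -0.215. Control replicate 3 and rutaecarpine replicate 2 deviated together at r = 0.387. Deviations within a group are bound to each other, so these values cannot decide whether the numbers pair the libraries. On the log2 scale the ratio of summed TPM was 0.141 over all 46 genes, 0.119 for the core and 0.192 for the 19S particle, and with libraries scaled to one median 0.0299, 0.00626 and 0.0838.

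Of 34 genes followed, 22 kept their direction in every alternative. With median centring POMP (-0.056), PSMB4 (-0.060), PSMB5 (-0.078), PSMD9 (-0.022) and PSME2 (-0.0027) turned. With length and GC trends removed POMP (-0.074), PSMA6 (-0.0048), PSMA7 (0.047), PSMB10 (0.018) and PSMC3 (0.018) turned. With library weights PSMA7 (0.053), PSMC3 (0.049), PSMD13 (0.0076) and PSMF1 (0.034) turned, and with both libraries left out PSMA7 (0.041), PSMC3 (0.057), PSMD13 (0.053) and PSMF1 (0.091). Leaving out 1 library turned POMP (-0.020 to 0.15), PSMA7 (-0.058 to 0.090), PSMB10 (-0.15 to 0.065), PSMB4 (-0.021 to 0.12), PSMB5 (-0.048 to 0.13), PSMB9 (-0.20 to 0.042), PSMC3 (-0.077 to 0.059) and PSMD13 (-0.10 to 0.017). The cause of these changes was not tested. Depth is unknown. A log2 change of 0.3 was seldom recovered in simulated data, which do not give the recovery for the proteasome genes themselves.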

Other observations

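PSMC3IP, named for its binding to PSMC3 but known as a factor of meiotic recombination, fell from 34.6, 36.8 and 28.1 TPM in the controls to 20.7, 16.0 and 20.3 TPM after rutaecarpine (log2 fold change -0.77, adjusted p = 0.0246 by limma). PSMC3 itself had a log2 fold change of -0.03. PSME3IP1, a partner of PA28 gamma, was at 72.9, 74.4 and 68.4 TPM in the controls and 86.1, 81.4 and 78.8 TPM after rutaecarpine, without overlap (log2 fold change 0.19, adjusted p = 0.222). The antisense gene PSMA3-AS1 was at 22.65, 21.01 and 10.54 TPM in the controls and 22.5, 20.6 and 23.7 TPM after rutaecarpine, with control replicate 3 lowest, while PSMA3 was at 122, 127 and 127 TPM in the controls. These genes were chosen after their values were seen.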
